A study of Rattus norvegicus with 6 samples.

Results

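Sox and Forkhead factors are 2 families of transcription factors that set cell identity in the airway and in its surrounding tissue. The genes described here are the probe sets whose platform symbol is Sox followed by a number, or Fox followed by a letter from a to s, a number and at most 1 more letter, without Foxm1. This gave 41 genes, 13 Sox and 28 Forkhead, of the 15037 genes measured, each with 1 probe set. They were compared between 2 culture media in tracheal epithelial cells scraped from male wild-type Sprague Dawley rats of 12 weeks (370 ± 39 g). The cells formed 3 lines, each pooled from 3 rats, and each line was divided between BEGM and EpiX and cultured for 8 days before RNA was taken. Both groups are therefore the same wild-type cells without any other treatment, and they differ only in the medium. BEGM is a bronchial epithelial growth medium and EpiX a medium for expanding epithelial cells. There was 1 array per culture, 3 for BEGM and 3 for EpiX, numbered here by the sample number in the source label. The titles disagree with it: they put the number 3 on both arrays called 2 here, and no number on those called 3.

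Sox proteins bind DNA through an HMG box that bends the helix, and Forkhead proteins bind through a winged-helix domain. Several act as lineage regulators: Sox2 specifies the conducting airway and maintains its basal cells, the FoxA factors open chromatin in endoderm, and Foxj1 switches on the motile cilium programme. Others belong to connective tissue, such as the FoxC factors and the cartilage regulators Sox5 and Sox6. Another set, including the FoxO and FoxK factors, is used in most cell types and responds to nutrients and growth factors.

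The values are the authors' log2 signals, and a fold assumes that the base is 2. A gene is said here to be called where limma gave a p under 0.05 after Benjamini-Hochberg (BH) adjustment across all genes. The number of arrays limits the precision. Levels of different genes come from different probe sets and are not set against each other. The cells carried epithelial markers on all arrays, with the adhesion molecule Epcam between 12.04 and 13.19, and the marker lists are given here beside a background of 2.63% of all genes called higher in EpiX and 3.15% called lower. Of 9 basal cell markers 5 were called higher in EpiX and 0 lower, and all 9 were positive with a median difference of 1.78 (log2, EpiX minus BEGM). Among them were Krt15 (4.12), Aqp3 (4.09) and Bcam (3.11), while Krt14 lay between 16.38 and 17.13 throughout. Of 8 general epithelial markers 6 were negative, with a median of -0.68, and 1 was called lower, Krt18 (-3.68). Of 8 smooth muscle markers 3 were called lower in EpiX, Cnn1 (-7.00), Tagln (-6.97) and Acta2 (-2.91). In that list 7 were negative and 1 positive, with a median of -0.55. Myh11 (-0.09) and Des (-0.29) differed little, and Myocd was the positive one (0.68). The list averaged 8.67, 9.30 and 9.43 in BEGM cultures 1, 2 and 3, and 6.70, 6.99 and 7.07 in EpiX. Of 10 fibroblast markers limma called 0, with 6 at an unadjusted p under 0.05; they averaged 6.28, 6.98 and 9.83 in BEGM, and 5.14, 5.18 and 5.58 in EpiX. BEGM array 3 stood apart in that list. Of 6 glial markers 1 was called lower, Ncam1 (-7.13), while 2 were positive and the list median was -0.13. The part of these markers in the results below was not tested. Because each array holds a whole culture, fewer cells of a type and less RNA per cell cannot be told apart.

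Most Sox and Forkhead genes were not called between the media, which does not show that they were unchanged. In EpiX, Sox2 and Sox13 rose and Sox4 fell, and the other 38 did not pass limma's test. The 3 called members are 7.32% of the 41, beside 5.78% of all genes called in the same comparison, so the share is near the background. For the 2 higher members the background is 2.63% of genes called higher, and for the 1 lower member it is 3.15%. The differences, taken throughout as EpiX minus BEGM on the log2 scale, had a median size of 0.25 over the members and 0.23 over all genes. The size was under 0.5 for 32 members and at least 1 for 6, namely Sox11, Sox2, Sox4, Foxe1, Sox13 and Foxc2. The arrays of the media did not overlap for 7 members (17.1%), against 28.0% of all genes.

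**Figure D1:**
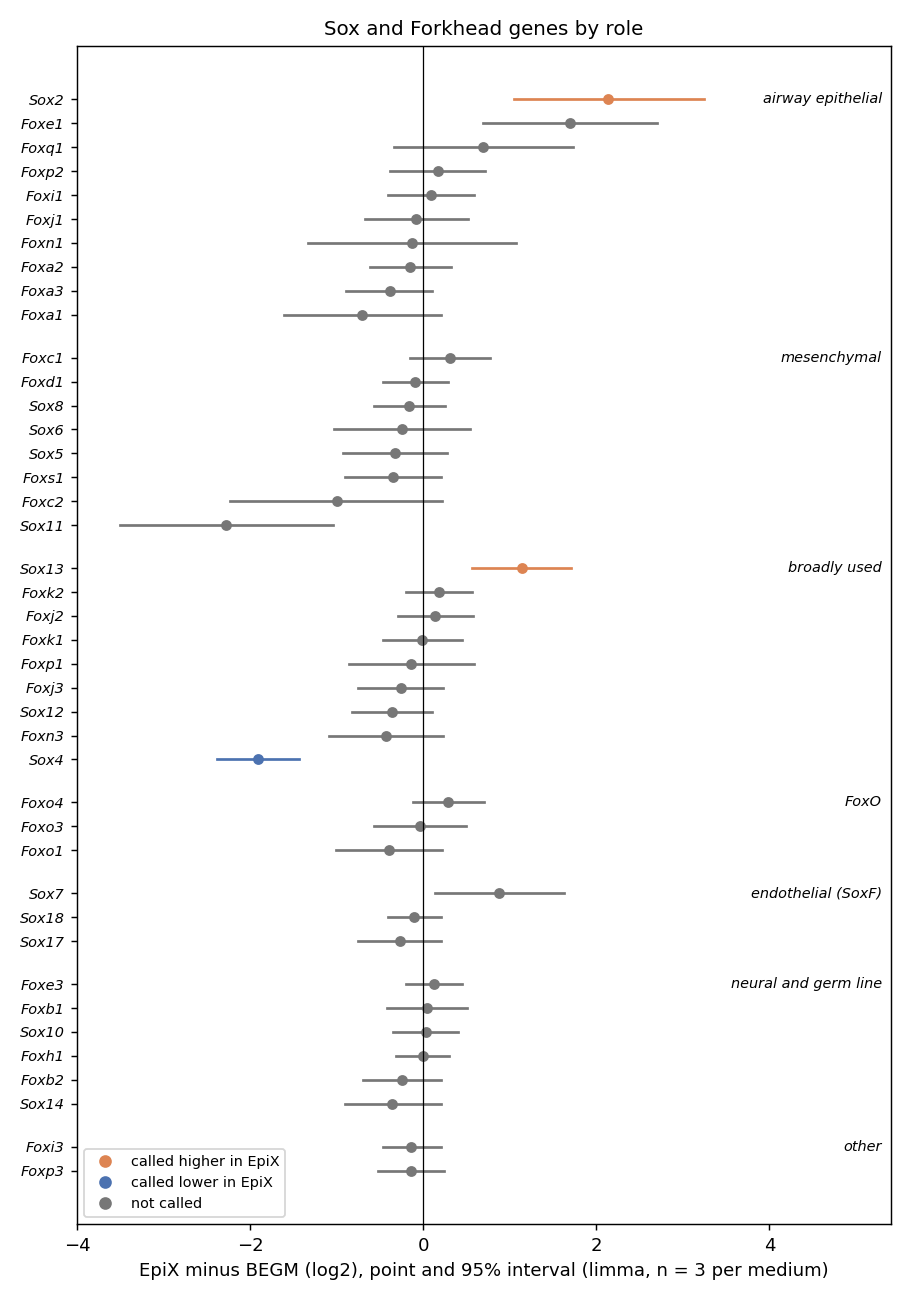
Difference between EpiX and BEGM (log2) for the 41 genes, grouped by role, with 95% intervals from limma (n = 3 per medium); orange marks called higher, blue called lower and grey not called. Sox2, Sox13 and Sox4 are the coloured members, and 32 of the 41 points lie within 0.5 of 0.

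Of the 41 genes, 20 lay above the median of the 1153 negative control probe sets on all 6 arrays, 13 lay at or below it on all 6, and 8 on some. The control medians ran from 5.11 to 5.56. The 13 were Foxa3, Foxb1, Foxd1, Foxe3, Foxh1, Foxi1, Foxi3, Foxj1, Foxp3, Sox5, Sox8, Sox17 and Sox18. A filter on the dimmest 25% of genes, those with a mean under 4.50, was passed by 29 members. The called genes and those with the next 3 lowest p-values (Sox11, Foxe1 and Sox7) were all among the 20.

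The results turn on a few Sox genes, and the windows before the starts of 3 of them are shown to place them beside their values. RefSeq's table for GRCr8 held a window for 24 of the 41 genes, among them Sox2, Sox13 and Sox11. Sox11 is the member with the largest difference and was not called. The called member Sox4 had no window and is not shown. Each sequence is the 250 bases before the annotated start, read on the gene's strand; capitals mark a GC box (GGGCGG) or a CCAAT box (CCAAT), on either strand.
Sox2, chr2:119464881-119465130, plus strand: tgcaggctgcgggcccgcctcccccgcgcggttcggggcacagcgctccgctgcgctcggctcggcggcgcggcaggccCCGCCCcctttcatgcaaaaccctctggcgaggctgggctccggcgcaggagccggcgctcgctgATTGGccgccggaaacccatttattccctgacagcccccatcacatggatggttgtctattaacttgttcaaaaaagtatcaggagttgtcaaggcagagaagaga
Sox13, chr13:47427573-47427822, minus strand: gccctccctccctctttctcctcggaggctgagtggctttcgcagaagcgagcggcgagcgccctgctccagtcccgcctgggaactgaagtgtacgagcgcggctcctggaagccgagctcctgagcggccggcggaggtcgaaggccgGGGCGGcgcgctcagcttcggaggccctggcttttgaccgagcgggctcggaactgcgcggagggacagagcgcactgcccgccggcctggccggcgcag
Sox11, chr6:49738795-49739044, minus strand: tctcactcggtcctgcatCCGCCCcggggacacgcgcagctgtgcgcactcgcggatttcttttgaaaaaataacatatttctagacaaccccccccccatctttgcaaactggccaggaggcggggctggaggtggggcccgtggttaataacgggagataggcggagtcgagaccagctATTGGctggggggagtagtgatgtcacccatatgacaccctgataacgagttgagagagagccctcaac
The Sox2 window holds a CCAAT box whose first base lies 106 bases before the start and a GC box at 171 bases, and the Sox11 window holds them at 69 and 232 bases. The Sox13 window holds a GC box at 100 bases. GC boxes were found in 15 of the 24 member windows and in 30.5% of all 33469 windows, and CCAAT boxes in 11 of 24 and 34% of all. The GC content was 64.4% for Sox2, 72% for Sox13 and 56.8% for Sox11, and the median over all windows was 51.2%. The 2 Sox core motifs searched were ACAAAG, found in 16.3% of all windows, and ACAATG, found in 11.1%; neither matched in these 3 windows. The forkhead core TGTTTAC (3.21% of all windows) and the TATA box TATAAA (12.9%) had no match there either. All motifs were searched on both strands, and none contains another. A match is a description of the letters and not evidence of binding.

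Among the factors of airway and stratified epithelium, Sox2 was the 1 called member of 10 measured. In the order of arrays 1, 2 and 3, used for all values below, Sox2 was at 10.94, 9.54 and 9.09 in BEGM and at 12.38, 11.75 and 11.87 in EpiX. All EpiX arrays lay above all BEGM arrays, and BEGM array 1 was the closest to EpiX. Sox2 rose by 2.14 ± 0.46 (SE, n = 3 per medium, limma adjusted p = 0.0464), with a 95% interval of 1.05 to 3.24 on the log2 scale. This is a 4.42-fold difference. Same-numbered arrays differed by 1.43, 2.21 and 2.78. Without BEGM array 1 the adjusted p was 0.00137, in a fit that called 13.9% of all genes against 5.78% with all arrays. The call ended without any 1 of the other 5 arrays. The adjusted p was then 0.169 and 0.0904 without BEGM arrays 2 and 3, and 0.153, 0.147 and 0.106 without EpiX arrays 1, 2 and 3. The difference stayed between 1.76 and 2.69 when arrays or pairs of arrays were left out.

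Foxe1, a factor known from thyroid and hair follicle, was at 6.99, 6.01 and 6.33 in BEGM and at 8.84, 8.30 and 7.28 in EpiX. The arrays of the media did not overlap, and EpiX array 3 was the lowest of its group. The difference of 1.70 ± 0.43 (SE) did not pass (limma adjusted p = 0.0689; 95% interval 0.69 to 2.70). It was called without BEGM array 1 (adjusted p = 0.027) and without EpiX array 3 (adjusted p = 0.0382). Of the 9 settings that left out arrays 3 called it, and the adjusted p reached 0.528 in the others. Of the 8 other settings, which kept all arrays, 3 called it as well, and the adjusted p ran from 0.0166 to 0.0689. Among those 3 was the limma fit with the sample number as a replicate block (adjusted p = 0.0255). Foxq1, which takes part in epithelial differentiation in several organs, differed by 0.69 ± 0.44 (adjusted p = 0.414), with overlapping arrays: EpiX array 1 was at 8.46, the other EpiX arrays at 7.68 and 6.86, and the BEGM arrays between 6.36 and 7.37.

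The FoxA factors, pioneer factors of lung and gut endoderm, went the other way in sign and none passed. Foxa1 was at 11.15, 11.50 and 10.41 in BEGM and 10.87, 10.42 and 9.65 in EpiX, and the groups overlapped. Its difference was -0.71 ± 0.38 (limma adjusted p = 0.338; 95% interval -1.61 to 0.20), so a fall of up to 1.61 or a small rise both lie in the interval. Foxa2 differed by -0.15 ± 0.20 and Foxa3 by -0.39 ± 0.21, Foxa3 being at or below the control median on every array.

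Foxj1, the regulator of motile cilia, was dim on every array. It was at 4.13, 4.62 and 3.78 in BEGM and at 4.40, 4.04 and 3.86 in EpiX, and its difference of -0.08 (95% interval -0.67 to 0.52) turned to 0.05 with each array centred on its median. Foxi1, which marks ionocytes, differed by 0.09 (-0.41 to 0.59) and also lay at or below the control median on every array. Foxp2, a repressor in developing lung epithelium, differed by 0.17 ± 0.23, and only EpiX array 1 lay above the control median. Foxn1, known from keratinocytes and thymus, differed by -0.13 with a wide interval of -1.33 to 1.07.

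**Figure D2:**
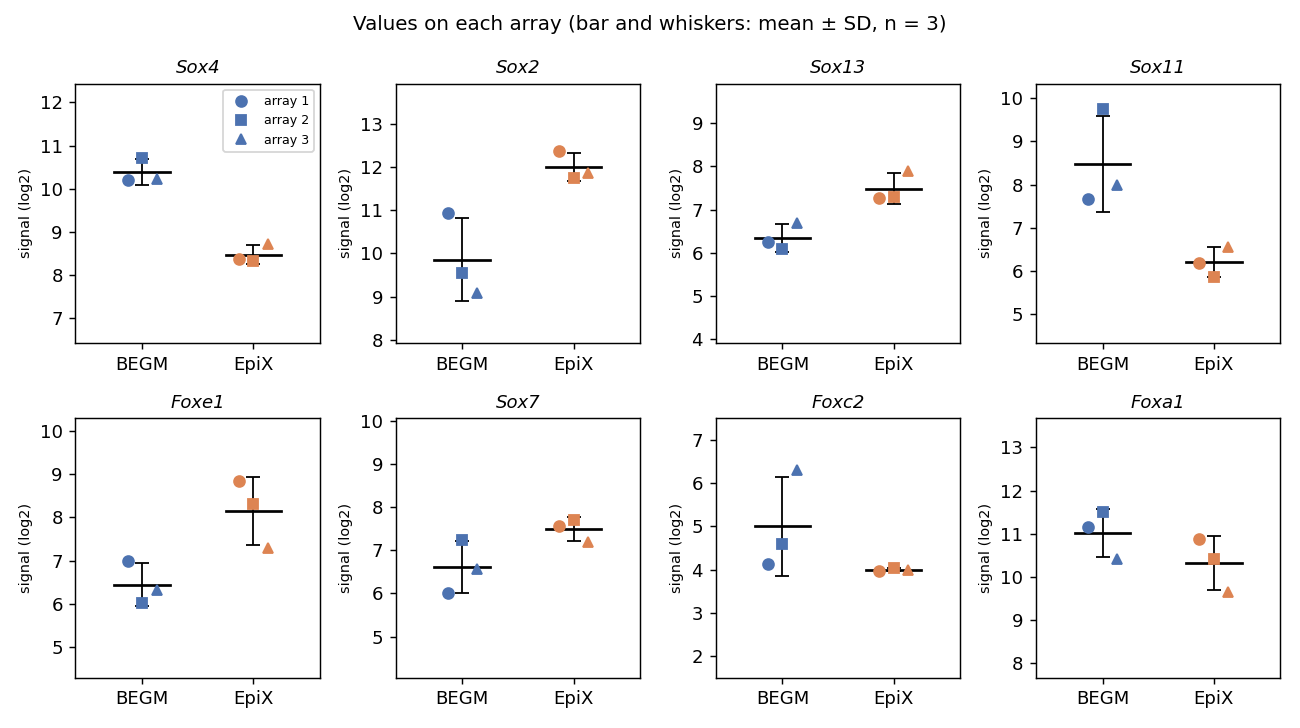
Log2 signal of 8 genes on each array (circle, square and triangle for arrays 1, 2 and 3), with mean ± SD (n = 3); every panel spans 6 log2 units. The media do not overlap for Sox4, Sox2, Sox13, Sox11, Foxe1 and Foxc2, and overlap for Sox7 and Foxa1.

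Of 8 measured factors of mesenchyme and cartilage, limma called 0, with 1 (Sox11) at an unadjusted p under 0.05. Sox11, a SoxC factor of neural and mesenchymal progenitors, was at 7.67, 9.74 and 8.00 in BEGM and at 6.18, 5.86 and 6.55 in EpiX. All BEGM arrays lay above all EpiX arrays, and BEGM array 2 was the highest. Its difference of -2.28 ± 0.52 (SE) missed the threshold (adjusted p = 0.0547; 95% interval -3.51 to -1.04), and was called without BEGM array 1 (adjusted p = 0.0147). Without both arrays numbered 2 it was -1.47 (adjusted p = 0.267).

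Foxc2, a regulator of vascular and connective tissue development, was at 4.12, 4.59 and 6.30 in BEGM and at 3.97, 4.03 and 3.99 in EpiX. All EpiX arrays and 2 of the 3 BEGM arrays lay at or below the median of the negative controls, so the size of the difference is not well measured, and it did not pass (limma adjusted p = 0.312). Only BEGM array 3, the array with the highest fibroblast marker level, lay above the controls; without it the difference was -0.36. Its relative Foxc1 was at 7.22, 7.18 and 7.79 in BEGM and 7.71, 7.63 and 7.77 in EpiX, a difference of 0.31 ± 0.20 (limma adjusted p = 0.412). Sox5, Sox6 and Sox8, of cartilage and neural crest derivatives, differed by -0.33, -0.24 and -0.16. Foxs1, of perivascular cells, differed by -0.35 and Foxd1, of kidney stroma, by -0.09, and neither passed. Sox5, Sox8 and Foxd1 lay at or below the control median on all arrays. Sox6 did so on all but BEGM array 3, and Foxs1 on all EpiX arrays.

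Set side by side, the 10 epithelial factors had a median difference of 0.01 and the 8 mesenchymal ones of -0.29, with 0.00 over all genes. Each group was a list of 14 genes, chosen with earlier results of these data known. Those not measured were Sox15, Sox21, Foxn4 and Foxp4 of the epithelial group, and Sox9, Foxd2, Foxf1, Foxf2, Foxl1 and Foxl2 of the mesenchymal group. Of the epithelial factors 5 were positive and 5 negative, from -0.71 to 2.14, and of the mesenchymal factors 1 was positive and 7 negative, from -2.28 to 0.31. With each array centred on its median, which moved the median of all genes to 0.13, these medians were 0.14 and -0.16. Over the same-numbered arrays the group medians had an SD of 0.09 and 0.22. The mesenchymal median was -0.08 without BEGM array 3, and the epithelial median was -0.13 without it, so the medians lay in reverse order there. Of the 10 epithelial factors 5 lay above the control median on all arrays, and of the 8 mesenchymal ones 2 (Foxc1 and Sox11), so the medians and the counts of signs rest in part on genes near background. Negative differences were also the more common over all members, 27 of 41. No test was made of the difference between the groups.

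**Figure D3:**
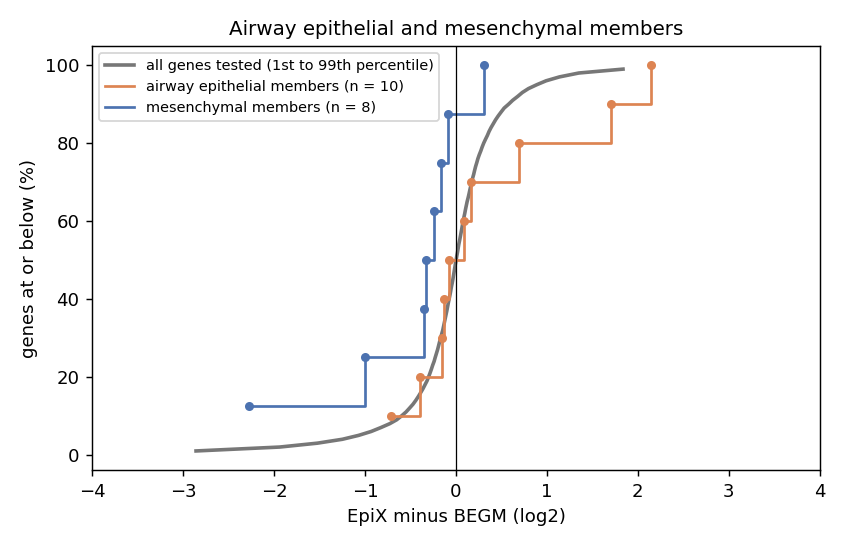
Cumulative share (%) of genes at or below each EpiX minus BEGM difference (log2), for all genes tested (grey), the 10 airway epithelial members (orange) and the 8 mesenchymal members (blue). The epithelial curve follows the grey one except at its right end, where Foxe1 and Sox2 lie, and 7 of the 8 mesenchymal points are below 0.

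The SoxC factor Sox4, known for roles in progenitor survival and in epithelial plasticity, fell and kept its call in more settings than the other members. It was at 10.21, 10.72 and 10.23 in BEGM and at 8.37, 8.34 and 8.72 in EpiX. The groups lay over 1 log2 unit apart and each was narrow, with SDs of 0.29 and 0.21. Sox4 fell by 1.91 ± 0.20 (SE; limma adjusted p = 0.0058; 3.76-fold; 95% interval -2.38 to -1.44). It stayed called without any 1 array, at adjusted p of 0.00244 to 0.0457, and without both arrays numbered 1 or 3. It was not called without both arrays numbered 2 (-1.68; adjusted p = 0.202), a setting in which 0 of all genes were called by limma and 1582 had an unadjusted p under 0.05. The other SoxC gene, Sox12, was at 7.46, 8.07 and 7.50 in BEGM and 7.24, 7.38 and 7.32 in EpiX. Its arrays did not overlap between the media, but its difference was -0.36 ± 0.19 (adjusted p = 0.333). All 3 SoxC genes thus had every EpiX array below every BEGM array, a pattern found in 14.5% of all genes, and 1 of the 3 passed the test.

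Sox13, a SoxD factor that modulates Wnt signalling in several tissues, was at 6.26, 6.08 and 6.69 in BEGM and at 7.27, 7.28 and 7.90 in EpiX. Both groups had their highest value on array 3. Sox13 rose by 1.14 ± 0.24 (SE, limma adjusted p = 0.0446), with a 95% interval of 0.56 to 1.71 on the log2 scale. This is a 2.20-fold difference. Same-numbered arrays differed by 1.00, 1.20 and 1.21 (log2). The call ended without BEGM array 2 (adjusted p = 0.156) or without EpiX array 1 (0.101), 2 (0.132) or 3 (0.0924). It held without BEGM array 1 (0.0457) and without BEGM array 3 (0.0442).

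**Figure D4:**
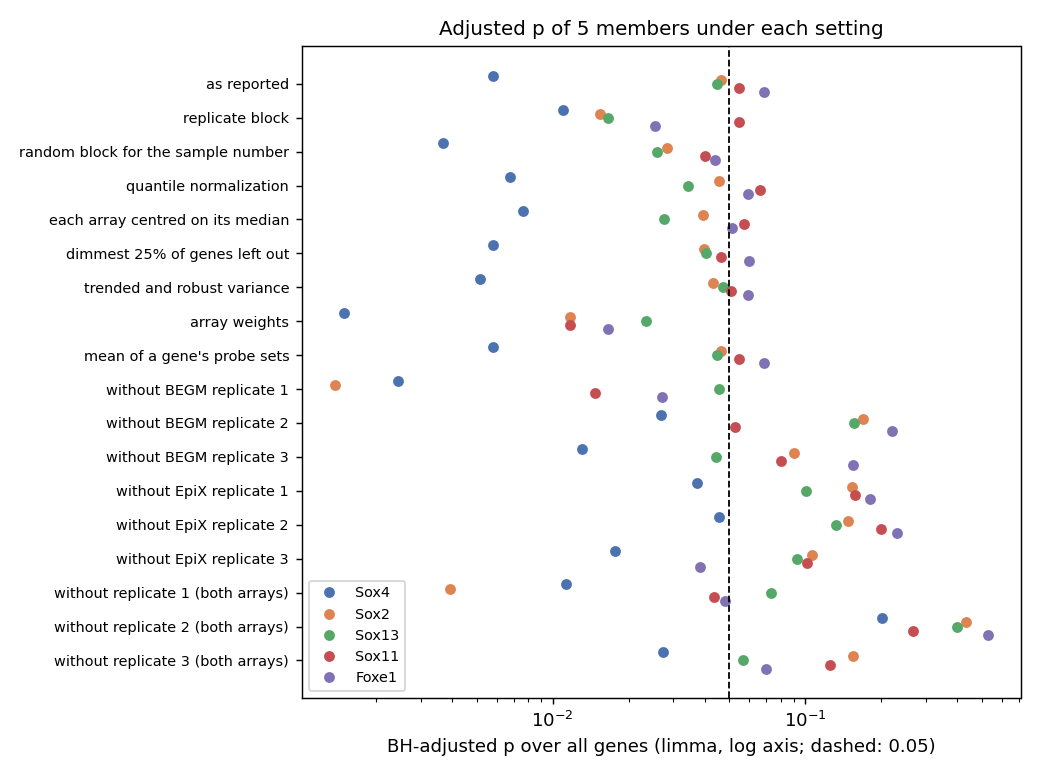
BH-adjusted p over all genes (log axis) of Sox4, Sox2, Sox13, Sox11 and Foxe1 for the reported fit and 17 other settings; the dashed line is 0.05. Sox4 lies left of the line in every setting but that without both arrays numbered 2, while Sox2 and Sox13 cross it when single arrays are left out.

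The FoxO factors, which insulin and growth factor signalling hold out of the nucleus, did not pass. Foxo1 was at 12.32, 13.14 and 13.21 in BEGM and 12.70, 12.40 and 12.38 in EpiX, with BEGM array 1 the lowest of all 6. Its difference was -0.40 ± 0.26 (limma adjusted p = 0.428), and -0.68 (adjusted p = 0.0461) without that array. Of the 9 settings that left out arrays only 1 called it. Foxo3 was at 13.18, 12.71 and 12.59 in BEGM and 13.09, 12.77 and 12.50 in EpiX. Its difference of -0.04 (95% interval -0.57 to 0.49) turned to 0.09 with each array centred on its median. Foxo4 differed by 0.29 ± 0.17.

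The other broadly used factors differed little. Foxk1 and Foxk2, repressors linked to nutrient signalling, differed by -0.01 (-0.46 to 0.45) and 0.18 (-0.20 to 0.56). Foxj2 and Foxj3 differed by 0.14 and -0.26. Foxp1, a repressor in lung epithelium and many other cells, was at 12.26, 13.23 and 13.47 in BEGM and 12.81, 12.88 and 12.87 in EpiX, so the BEGM arrays lay on both sides of the EpiX arrays (-0.14; 95% interval -0.86 to 0.59). Foxn3, a checkpoint-linked repressor, differed by -0.43 ± 0.28, with EpiX array 3 at 9.66 and the other arrays between 10.47 and 10.94.

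Among the SoxF factors, regulators of endothelium, Sox7 was at 6.01, 7.23 and 6.57 in BEGM and 7.57, 7.71 and 7.19 in EpiX. The ranges overlapped by a small margin. Its difference of 0.88 ± 0.32 did not pass (limma adjusted p = 0.159; 95% interval 0.14 to 1.63). Sox17 (-0.27) and Sox18 (-0.11) lay at or below the control median on all arrays. The 6 measured neural and germ-line factors, Foxb1, Foxb2, Foxe3, Foxh1, Sox10 and Sox14, differed by -0.36 to 0.12, and limma called 0 of them, with 0 at an unadjusted p under 0.05. Foxi3 and the regulatory T cell factor Foxp3 both differed by -0.14.

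Genes listed as acting with or below these factors, or as regulators of the same tissues, were read from the same fit. One list held Sox2 partners and other regulators of basal or stratified epithelium. Of its 11 measured genes 3 rose, 0 fell and 8 did not pass, beside 2.63% of all genes called higher. Whether they act with Sox2 in these cells was not tested. All 11 had positive differences with a median of 1.29, as had all 9 basal cell markers above (median 1.78), with which the list shares Tp63. Tp63, the basal cell master regulator, rose by 2.15 ± 0.20 (adjusted p = 0.00431), Klf5 by 1.54 ± 0.26 (0.0215) and Tfap2a by 1.29 ± 0.16 (0.00876). The list averaged 10.44, 9.43 and 8.86 in BEGM and 11.07, 10.85 and 10.57 in EpiX. As for Sox2, BEGM array 1 was the highest of its group and the closest to EpiX. Tp63 stayed called without any 1 array. Tfap2a was not called without EpiX array 2 (adjusted p = 0.0594), nor Klf5 without BEGM array 2 (0.0947) or EpiX arrays 1 (0.0839) or 2 (0.11).

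Of 18 measured FoxO targets 2 rose, 3 fell and 13 did not pass, with a median of 0.18; over all genes 2.63% were called higher and 3.15% lower. The transcriptional repressor Bcl6 rose by 1.59 ± 0.19 (limma adjusted p = 0.00906), and the ubiquitin ligase subunit Fbxo32 fell (-2.54 ± 0.34; adjusted p = 0.0119), as did the coregulator Cited2 (-1.93 ± 0.32; 0.021) and the metabolic kinase Pdk4 (-1.44 ± 0.30; 0.0424). Pdk4 lay at or below the control median on all 3 EpiX arrays and 1 BEGM array, so the size of its fall is not well measured. The other rise, named after its value was seen, was that of the apoptosis factor Bcl2l11 (1.26; adjusted p = 0.0418). Bcl6 was not called without EpiX array 2 (adjusted p = 0.0597), nor Fbxo32 without BEGM array 2 (0.0681) or EpiX array 2 (0.0724). Cited2, Pdk4 and Bcl2l11 lost their calls without any 1 array other than BEGM array 1, at adjusted p of 0.0521 to 0.103, 0.0829 to 0.169 and 0.0639 to 0.165.

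For the mesenchymal factors, 15 hedgehog pathway and lung mesenchyme genes held 1 fall and 14 that did not pass, with a median of -0.30. Over all genes 3.15% were called lower. Only 4 of the 15 lay above the control median on all arrays. The fall was that of the growth factor Bmp4 (-7.03 ± 1.14, limma adjusted p = 0.0199). Bmp4 was not called without BEGM array 2 (adjusted p = 0.0952) or EpiX arrays 1 (0.0797) or 2 (0.102). Of 11 cartilage genes below Sox9, Sox5 and Sox6, limma called 0, with 1 at an unadjusted p under 0.05 and a median of -0.12. The 2 genes named by the size of their fitted difference were the matrix link protein Hapln1 (-2.32 ± 1.04, adjusted p = 0.249) and the collagen chain Col11a1 (-1.13 ± 0.43, adjusted p = 0.181). Each was called without BEGM array 1 (0.0191 and 0.00185), where 13.9% of all genes were called. Of the 9 settings that left out arrays, 1 called Hapln1 and 2 called Col11a1, with adjusted p up to 0.665 and 0.659. Both lay at or below the control median on all EpiX arrays, so these sizes are not well measured. In BEGM, Hapln1 was at 4.08, 6.18 and 8.73, highest on array 3 as Foxc2 was.

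The lists tied to airway Forkhead factors showed few calls. Of 10 motile cilium genes 1 rose, the transcription factor Rfx2 (1.77 ± 0.28, limma adjusted p = 0.0188), and 9 did not pass, with a median of -0.05. Over all genes 2.63% were called higher. In this list 0 of the 10 lay above the control median on all arrays. Rfx2 was at 6.16, 5.37 and 5.07 in BEGM, with array 3 below the control median of 5.29, so the size of its rise is not well measured. Rfx2 was not called without BEGM array 2 (adjusted p = 0.0907) or EpiX arrays 1 (0.0779), 2 (0.0879) or 3 (0.0592). Of 10 secretory genes linked to FoxA, limma called 0, with 4 at an unadjusted p under 0.05 and a median of -0.29. The secretoglobin Scgb3a1 differed by 5.72 ± 1.43 (adjusted p = 0.0675), from 5.26, 10.27 and 8.01 in BEGM to 11.63, 13.33 and 15.75 in EpiX, and the chloride channel Cftr by -1.28 ± 0.40 (0.117). Of 9 ionocyte genes limma called 0, with 2 at an unadjusted p under 0.05 and a median of -0.10. They include the ionocyte-linked factor Tfcp2l1 (2.68 ± 0.66, adjusted p = 0.0661). Its adjusted p was 0.006 without BEGM array 1, where 13.9% of all genes were called, and reached 0.489 with other arrays left out.

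**Figure D5:**
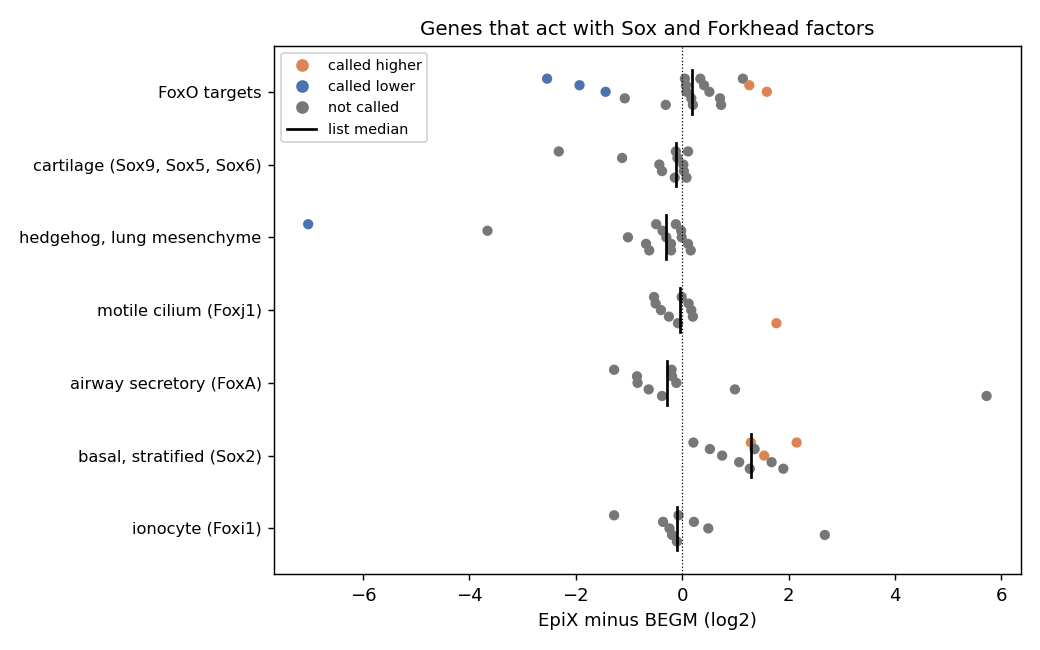
EpiX minus BEGM (log2) of each measured gene in 7 lists of genes linked to Sox or Forkhead factors. Orange is called higher, blue called lower, grey not called, and the black bar is the list median. The list of Sox2 partners and basal or stratified epithelial regulators lies wholly above 0 with a median of 1.29. The other medians lie between -0.30 and 0.18.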

How the data were processed

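RNA of 6 cultures was labelled by the Affymetrix protocol, per the labels' protocols. The table the authors deposited gives log2 signals of 24834 probe sets. Transcriptome Analysis Console is the tool in the submitters' processing notes; its use, its settings and any normalization were not given in the sources used here. Since the unit was inferred from the values, base and centring stay unknown. Array medians over the genes ran from 6.90 to 7.13. The platform annotation gave 1 symbol for 15049 probe sets, and the brightest probe set per gene was kept (15037 genes). All 41 members were matched to RefSeq by gene ID.

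All genes were fitted with limma 3.58.1 (lmFit, eBayes; R 4.3.3) on the medium alone, and p-values were 2-sided and BH-adjusted over all genes. The script was tested on simulated data. Negative controls are the probe sets with "neg" in their identifier; this yardstick and the promoter motifs were added after the data were seen. Members, role groups and gene lists were chosen with earlier results of these data known. Named members were the called ones, the 8 largest differences in each direction and 10 measured genes always named; up to 4 called genes of each list were added, or 2 as values. Other members are given by values or range. Of the genes preset to be always named, Sox9, Sox15 and Foxf1 could not be matched to a probe set and were not analysed here. Plots were drawn with matplotlib 3.10.9.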

Additional observations from a re-analysis of the deposited data

How the results depend on the processing

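The medium's number of called members changed little with the processing and more with the arrays. Across the 8 settings that keep all arrays, 2 or 3 members were called higher and 1 or 2 lower, and Sox2, Sox13 and Sox4 were called in all 8. The count lower was 2 with the random block, with the dimmest 25% left out and with array weights, Sox11 being the added member; Foxa3, Foxc2 and Foxj1 are among the dimmest genes and had no value there. Foxe1 was the added member where 3 were higher, at adjusted p = 0.0255 (replicate block), 0.0439 (random block) and 0.0166 (array weights). When 1 array or both arrays of a number were left out, the count higher ran from 0 to 3 and the count lower from 0 to 3. The share of all genes called ran from 0% (without both arrays numbered 2) to 13.9% (without BEGM array 1) in those settings. The median of the epithelial members was 0.14 with each array centred and 0.17 with the dimmest genes left out, and ran from -0.13 to 0.19 when arrays were left out; that of the mesenchymal members ran from -0.38 to -0.08. Differences near 0 turned sign: Foxj1 to 0.05 and Foxo3 to 0.09 with centring, and Foxo3 to 0.02 with array weights. With arrays left out Foxj1 ran from -0.27 to 0.18 (0.15 without BEGM array 2), Foxo3 from -0.19 to 0.14, Foxp1 from -0.50 to 0.10, Foxq1 from -0.01 to 1.21 and Foxa2 from -0.41 to 0.04. The cause of these changes was not tested, and leaving out arrays also leaves fewer samples.

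Cells of every line went into each medium, so the design pairs the cultures by line. No label ties a sample number to a line, although the titles group the arrays in the same pairs as the numbers. The reported fit used the medium alone and left these pairs out. After subtracting group means, arrays that share a number correlated over genes at 0.318, -0.0139 and 0.323 for numbers 1, 2 and 3, and BEGM array 2 correlated best with EpiX array 3 (0.118). With the number as a replicate block, 3 members were called higher and 1 lower, and 1252 genes in all against 869. Scgb3a1, Cftr and Tfcp2l1 were also called in that fit (adjusted p = 0.0201, 0.0125 and 0.00762).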

Other observations

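Some members varied more between arrays of 1 medium than between the media. Foxn1 was at 10.77 on BEGM array 1 and at 9.20 and 8.58 on BEGM arrays 2 and 3, while the EpiX arrays lay together at 9.35, 9.40 and 9.41. Sox6 lay above the control median on BEGM array 3 alone. In array order, it was at 4.36, 5.03 and 5.33 in BEGM and at 5.19, 4.60 and 4.19 in EpiX. The differences of same-numbered arrays were 0.83, -0.43 and -1.14. Foxq1 likewise differed by 2.10, 0.31 and -0.33 over the same-numbered arrays. In all, 17 of the 41 members had the same direction in the 3 same-numbered comparisons.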
